A study of Mus musculus with 6 samples.

Results

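Gnas was examined probe by probe in LβT2, a mouse cell line of pituitary gonadotrope origin. Every probe whose platform annotation gives the gene symbol Gnas was taken, which found 10 of the 45281 probes on the array. The 6 samples, of strain CB6F1/J, were 3 of cells transfected with Gas siRNA and 3 of cells transfected with scrambled siRNA, both for 48 h. Gas was read here as Gs alpha, the product of Gnas, since the labels do not spell it out, and the sequences of the siRNAs are not given in the sources used here. Both groups went through transfection, and a group without siRNA was not analysed here. LβT2 is a single tumour-derived line. Whether the 3 samples of a group were separate cultures is not stated, so the spread behind the p-values may be technical in part. The limma p-values also draw on the spread of the other kept probes, not on that of the probe alone.

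Gs alpha is the stimulatory alpha subunit of heterotrimeric G proteins. When a receptor such as that for the peptide PACAP or for corticotropin-releasing hormone is occupied, Gs alpha binds GTP, separates from the beta and gamma subunits and activates adenylyl cyclase, which makes cAMP. Gnas is a complex, imprinted locus: alternative first exons give Nesp55, a chromogranin-like secretory protein, XL alpha s, a large Gs alpha variant, a non-coding transcript from exon 1A, and Gs alpha itself, and all of these splice onto shared downstream exons. An antisense transcript, Gnasas1, runs across the upstream part. In the pituitary Gs alpha is made mainly from the maternal allele.

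Some of these separate starts can be seen in the RefSeq promoter sequences (GRCm38.p6). These sequences each cover 250 bases before to 50 after a start on the plus strand of chromosome 2. They are shown because the 10 probes were annotated to different transcripts of this locus, while the array itself reads no promoter. Capitals mark matches, on either strand and with no overlap between motifs, to the TATA box searched as TATAAA, to the CCAAT box, to the GC box searched as GGGCGG and to the cAMP response element searched as TGACGTCA. The first sequence (chr2:174284070-174284369) lies at the most upstream start, that of the Nesp exon, the second (chr2:174327499-174327798) at the exon 1A start, and the third (chr2:174329756-174330055) at the first exon of Gs alpha.
Nesp start: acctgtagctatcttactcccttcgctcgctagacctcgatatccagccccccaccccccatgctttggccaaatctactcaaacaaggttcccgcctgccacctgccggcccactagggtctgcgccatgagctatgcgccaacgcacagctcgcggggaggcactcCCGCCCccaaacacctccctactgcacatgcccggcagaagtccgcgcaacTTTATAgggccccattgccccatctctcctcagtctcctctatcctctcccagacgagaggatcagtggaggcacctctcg
exon 1A start: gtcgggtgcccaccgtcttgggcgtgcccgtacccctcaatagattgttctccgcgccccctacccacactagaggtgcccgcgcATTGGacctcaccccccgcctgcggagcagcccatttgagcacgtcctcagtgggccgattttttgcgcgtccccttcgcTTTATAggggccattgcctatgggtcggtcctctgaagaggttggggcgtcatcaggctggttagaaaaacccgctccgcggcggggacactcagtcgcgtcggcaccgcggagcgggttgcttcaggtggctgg
Gs alpha start: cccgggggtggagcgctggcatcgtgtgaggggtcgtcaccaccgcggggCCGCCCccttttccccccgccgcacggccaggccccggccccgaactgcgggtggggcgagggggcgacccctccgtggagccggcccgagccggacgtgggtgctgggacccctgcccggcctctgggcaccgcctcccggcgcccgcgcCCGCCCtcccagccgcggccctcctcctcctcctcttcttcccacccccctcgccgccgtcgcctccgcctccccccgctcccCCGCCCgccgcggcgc

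The Gs alpha window was 81.7% G and C with 40 CpG dinucleotides, more G and C than 99.4% of the 32841 windows of the same length in the RefSeq table. The exon 1A window was 64.3% G and C with 27 CpG and the Nesp window 61% with 16 CpG, against medians of 52.7% and 7 over all windows. GGGCGG had 3 matches in the Gs alpha window, all on the minus strand, 1 in the Nesp window and 0 in the exon 1A window, and 35.7% of all windows held it. TATAAA was matched on the minus strand in the Nesp window, beginning 31 bases before the start, and in the exon 1A window, and 13.6% of all windows held it. CCAAT was matched in the exon 1A window (37.4% of all windows held it), and TGACGTCA in none of the 3 (1.79% of all windows held it). These matches describe letters and were not tested as binding sites. A further RefSeq start lay 19 bases downstream of the exon 1A start shown. The promoter sequences used held no other start for Gnas, so none is shown for XL alpha s.

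Values are the authors' processed intensities, on a linear scale in arbitrary units, 1 per probe and array. The most common intensity, taken as background, was 127 on each array, and 142 to 143 was the bound above which a probe was called brighter than background (the 95th percentile of that background). Between 47.6% and 48.0% of all probes lay above it. Correlations over kept probes were 0.991 between arrays of one group and 0.989 to 0.991 between groups. Of 10 gonadotrope markers 9 were measured in these cells, among them Cga, Lhb, Gnrhr and Nr5a1, and the Fshb probe lay above the bound on 0 of 6 arrays. Of 8 markers of other pituitary cells 1, Gh, was measured, and the probes of Prl, Tshb, Pomc, Tbx19 and S100b lay above the bound on 0 arrays. A Sox2 probe lay above the bound on 2 arrays, too few to be kept, and Pou1f1 had no probe. Gh lay above the bound on 6 arrays but was dim. Its log2 means after background correction were 5.34 with Gas siRNA and 5.79 with scrambled siRNA. With 3 arrays in each group, that number sets how precise the values are.

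With Gas siRNA both bright Gnas probes fell, further than any other kept probe on the array, while the other 8 probes lay near background in both groups. Gnas was one of 11 genes with at least 10 probes on this array, where the most for one gene was 14. A probe was kept for testing if it was above the bound on at least 3 of 6 arrays, which 7 of the 10 Gnas probes were. Of these 7, 2 fell, 0 rose and 5 did not pass. Across the 21895 kept probes 1.17% were called at a limma adjusted p under 0.05, 0.662% lower with Gas siRNA and 0.507% higher. For 1626 kept probes all Gas siRNA arrays lay below all scrambled siRNA arrays, so groups that do not overlap are no call by themselves.

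**Figure D1:**
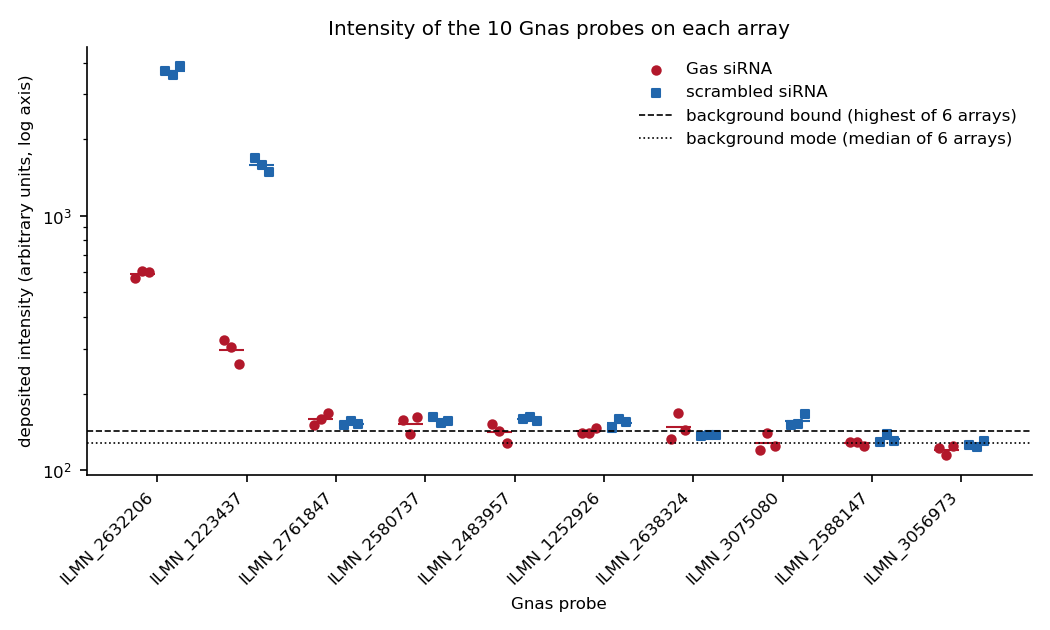
Deposited intensity (log axis) of each of the 10 Gnas probes on the 3 Gas siRNA arrays (red circles) and the 3 scrambled siRNA arrays (blue squares), with group means as short lines. ILMN_2632206 and ILMN_1223437 stand clear of the background bound in both groups and lower with Gas siRNA, and the other 8 probes lie near the bound, at intensities up to 168.

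ILMN_2632206, annotated to the RefSeq transcript NM_022000, had intensities of 568, 608 and 598 on the Gas siRNA arrays, against 3697, 3579 and 3864 on the scrambled siRNA arrays. The groups lay far apart and the 3 arrays of each lay close together. On the Gas siRNA arrays the probe was brighter than 85.4% to 86.0% of all probes, against 97.3% to 97.6% on the scrambled siRNA arrays. After background correction (normexp with an offset of 16) and quantile normalization its log2 value was 8.91 ± 0.062 with Gas siRNA and 11.81 ± 0.057 with scrambled siRNA (SD, n = 3 each). The log2 change, Gas siRNA minus scrambled siRNA, was -2.91 (SE 0.0867, 95% interval -3.09 to -2.73, limma adjusted p = 6.03e-20), a level 7.50-fold lower.

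ILMN_1223437, annotated to NM_001077510, had intensities of 323, 306 and 262 on the Gas siRNA arrays, against 1688, 1590 and 1489 on the scrambled siRNA arrays. Again the groups did not overlap, and the third Gas siRNA array was the lowest. Its log2 value was 7.52 ± 0.25 with Gas siRNA and 10.53 ± 0.097 with scrambled siRNA (SD, n = 3 each). The log2 change was -3.00 (SE 0.118, 95% interval -3.25 to -2.76, limma adjusted p = 6.04e-17), or 8.03-fold lower. These were the 2 largest falls among the kept probes, followed by that of Inha, the inhibin alpha subunit gene, at -1.78.

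Part of the Gnas signal remained on both probes. With the background subtracted, ILMN_2632206 kept 12.3%, 13.4% and 13.1% of its mean signal in scrambled siRNA cells on the 3 Gas siRNA arrays (12.9% ± 0.57, SD, n = 3). ILMN_1223437 kept 13.4%, 12.2% and 9.24% (11.6% ± 2.15, SD, n = 3). The third Gas siRNA array was thus the lowest on ILMN_1223437 and in the middle on ILMN_2632206. In bulk RNA a lower level in every cell and a loss in some of the cells cannot be told apart. The difference between the log2 changes of these probes, ILMN_2632206 minus ILMN_1223437, was 0.097 (2-sided exact permutation over arrays, p = 0.7). The SD of the within-array difference was 0.29 on Gas siRNA arrays and 0.14 on scrambled siRNA arrays. With 20 splits of the arrays this permutation can give no p under 0.1, here or under the settings that follow. It thus could not call a difference of any size, and its p-values do not show that both probes fell equally.

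Which of them fell further depended on the background. Without background correction the log2 changes were -2.65 for ILMN_2632206 and -2.42 for ILMN_1223437, 6.28-fold and 5.36-fold lower, and the difference between them was -0.23 (exact permutation p = 0.3). With an offset of 50 it was -0.032 (exact permutation p = 1). With background-corrected values and the offset of 16, leaving out Gas siRNA replicate 3 also turned the order, to 7.56-fold for ILMN_2632206 and 7.27-fold for ILMN_1223437.

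**Figure D2:**
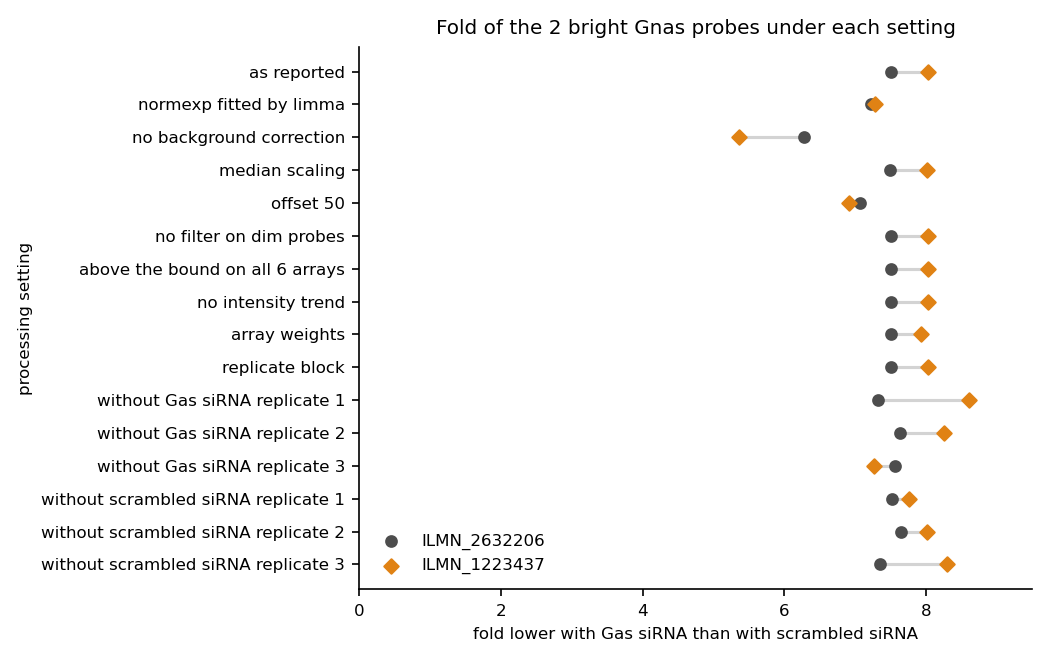
Fold by which ILMN_2632206 (grey circles) and ILMN_1223437 (orange diamonds) were lower with Gas siRNA than with scrambled siRNA, under the reported setting and each of 15 others. The folds lie between 5.36 and 8.61, lowest without background correction. The order of the probes turns there, with an offset of 50 and without Gas siRNA replicate 3.

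The other probes hold little signal to lose. ILMN_3075080, annotated to NR_003258, a non-coding transcript by its RefSeq prefix, had intensities of 120, 140 and 125 on the Gas siRNA arrays, against 150, 152 and 167 on the scrambled siRNA arrays. It was above the bound on 0 of 3 Gas siRNA arrays and on 3 of 3 scrambled siRNA arrays, and the groups did not overlap. No fold is given, because its level with Gas siRNA was not well above background. Its measured means were 4.56 ± 0.28 with Gas siRNA and 5.47 ± 0.28 with scrambled siRNA (log2, SD, n = 3 each). The log2 difference was -0.91 (limma adjusted p = 0.0661), -0.44 with an offset of 50 and -0.29 without background correction. The probe was kept for testing only through its scrambled siRNA arrays, so a lower value with Gas siRNA was built into its selection and its p-values support no change.

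ILMN_2483957, for which the annotation gives no transcript, had intensities of 152, 142 and 128 on the Gas siRNA arrays, against 158, 162 and 156 on the scrambled siRNA arrays. The groups did not overlap, but 2 of the 3 Gas siRNA arrays were below the bound. Its log2 change was -0.62 (95% interval -1.11 to -0.13, limma adjusted p = 0.308). It was -0.40 without Gas siRNA replicate 3, -0.32 with an offset of 50 and -0.18 without background correction. This probe and ILMN_1252926, described next, were each above the bound on 3 scrambled siRNA arrays and 1 Gas siRNA array, so they too owed their place among the kept probes to the scrambled siRNA arrays.

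Both probes annotated to NM_010309 overlapped between the groups. ILMN_1252926 had intensities of 140, 140 and 147 with Gas siRNA, against 146, 160 and 155 with scrambled siRNA, a log2 change of -0.41 (95% interval -0.89 to 0.062, limma adjusted p = 0.593). ILMN_2761847 had intensities of 150, 158 and 168 with Gas siRNA, against 150, 156 and 151 with scrambled siRNA, a log2 change of 0.20 (95% interval -0.26 to 0.65, limma adjusted p = 0.846; 0.059 to 0.33 without one array). It was above the bound on all 6 arrays, as were ILMN_2632206 and ILMN_1223437 of the 10. ILMN_2580737, annotated to the cDNA AK086317, had intensities of 157, 138 and 162 with Gas siRNA, against 162, 154 and 157 with scrambled siRNA. Its log2 change was -0.19 (95% interval -0.67 to 0.30, limma adjusted p = 0.872), and without Gas siRNA replicate 2, its lowest array, 0.070.

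The 3 probes that were not kept include the other 2 annotated to NM_022000, the transcript of the bright ILMN_2632206. ILMN_2638324 had intensities of 133, 168 and 144 with Gas siRNA, against 136, 138 and 137 with scrambled siRNA, so that it was above the bound on 2 Gas siRNA arrays and on 0 scrambled siRNA arrays. ILMN_2588147 had 129, 129 and 124 with Gas siRNA, against 129, 138 and 130 with scrambled siRNA. ILMN_3056973, annotated to NM_201617, had 122, 114 and 125 with Gas siRNA, against 125, 124 and 130 with scrambled siRNA. Both lay below the bound on all 6 arrays. Fitted with no filter, the log2 changes of ILMN_2638324, ILMN_2588147 and ILMN_3056973 were 0.39, -0.14 and -0.10, and none passed (limma adjusted p = 0.782, 0.857 and 0.848).

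Of the 3 probes assigned to NM_022000, 1 thus fell and 2 were not kept. Of the 10 probes 9 had an accession, 6 accessions in all, and 8 carried one that RefSeq lists under Gnas. The accession names the transcript a probe was assigned to, and where the probe lies in it, and so which other transcripts of the locus it reads, was not analysed here. The 5 dim kept probes had mean excesses over the background of 0.88 to 31.6 intensity units with Gas siRNA and 25.2 to 31.6 with scrambled siRNA, so the size of a change in their transcripts was hardly measurable.

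**Figure D3:**
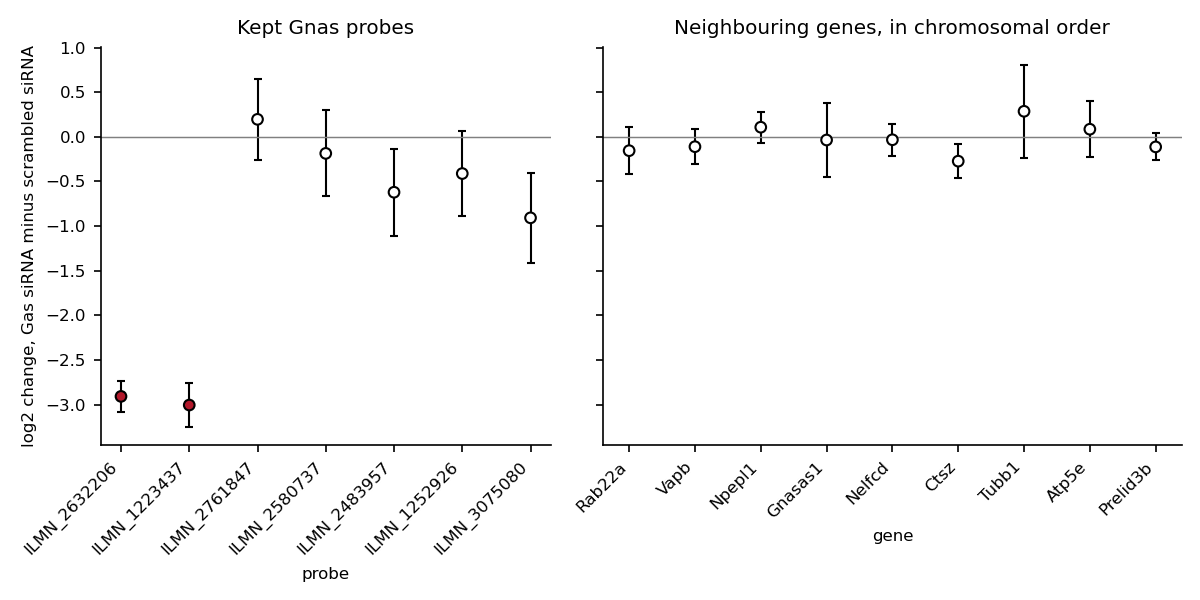
Log2 change, Gas siRNA minus scrambled siRNA, with its 95% interval from limma, for the 7 kept Gnas probes (left) and the 9 measured genes beside or across Gnas in chromosomal order (right). Filled points passed at an adjusted p under 0.05: these are ILMN_2632206 and ILMN_1223437, at -2.91 and -3.00, and the intervals of the neighbours reach down to -0.46.

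The transcripts around Gnas were read next, since Gnas, read here as the target of the siRNA, is one gene of a shared chromosomal neighbourhood. Of 14 genes, the 6 nearest protein-coding genes with a probe on each side and 2 non-coding genes that overlap Gnas, 9 were measured, of which 0 rose and 0 fell in the limma fit, and 1.66% of all genes were called in either direction. Of these 9 genes 1, Ctsz, had an unadjusted p under 0.05, as had 11.3% of all measured genes. Their median log2 change was -0.036, against -0.00019 over all 11587 measured genes. Gnasas1, the antisense transcript of the locus, had log2 values of 5.57, 5.68 and 5.70 with Gas siRNA, against 5.70, 5.83 and 5.53 with scrambled siRNA. The groups overlapped, and the log2 change of Gnasas1 was -0.036 (95% interval -0.46 to 0.38, limma adjusted p = 0.973). With scrambled siRNA its mean was 5.69, near that of dim Gnas probes such as ILMN_2483957 (5.57). The size of a change in Gnasas1 was thus hardly measurable.

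Npepl1, an aminopeptidase-like gene and the nearest measured gene on one side, had a log2 change of 0.11 (95% interval -0.067 to 0.28). Nelfcd, a subunit of the negative elongation factor and the nearest on the other side, had -0.033 (95% interval -0.21 to 0.14). Ctsz, which encodes the lysosomal protease cathepsin Z, had log2 values of 9.74, 9.65 and 9.85 with Gas siRNA, against 9.96, 10.06 and 10.03 with scrambled siRNA. These did not overlap, and the change of -0.27 (SE 0.0936) did not pass (limma adjusted p = 0.214), nor did that of the second Ctsz probe (-0.26). Rab22a (a GTPase of endosomes), Vapb (a membrane protein of the endoplasmic reticulum), Tubb1 (a beta tubulin), Atp5e (the epsilon subunit of ATP synthase) and Prelid3b had log2 changes of -0.16, -0.11, 0.29, 0.085 and -0.11, and none passed. Tubb1 was above the bound on 2 Gas siRNA arrays and 1 scrambled siRNA array. The probes of Stx16, Edn3, Ankrd60 and 1700021F07Rik were not kept, and the non-coding gene Gm30189 had no probe.

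The other alpha subunits share sequence and partners with Gs alpha. Of 15 such genes 11 were measured, of which 1 fell, 0 rose and 10 did not pass, where 0.949% of all genes fell and 0.708% rose. Their median log2 change was 0.033. Gnat1, Gnat2 and Gnat3 count among the 11, but each lay above the bound on only 2 Gas siRNA arrays and 1 scrambled siRNA array. The sizes of their log2 changes, 0.24, 0.30 and 0.37, were thus hardly measurable, though these genes enter the median. Of the 11 genes 3 (27.3%) had an unadjusted p under 0.05, against 11.3% of all measured genes. Besides Gnaq these were Gna12 (log2 change 0.33) and Gna13 (-0.22), which did not pass (limma adjusted p = 0.469 and 0.387). Gnal, which encodes the olfactory relative of Gs alpha that also activates adenylyl cyclase, had log2 values of 5.71, 5.26 and 5.70 with Gas siRNA, against 5.27, 5.61 and 5.37 with scrambled siRNA. The groups overlapped, and its change was 0.14 (95% interval -0.31 to 0.59, limma adjusted p = 0.898) on the 1 kept of 5 Gnal probes. This probe lay near the level of the dim Gnas probes, so the size of a change in Gnal was hardly measurable. Gnaq, an alpha subunit that activates phospholipase C beta, had log2 values of 10.42, 10.43 and 10.36 with Gas siRNA, against 10.81, 10.76 and 10.77 with scrambled siRNA.

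These did not overlap, and Gnaq fell by 0.37 (SE 0.0831, limma adjusted p = 0.0157). The changes of its other 2 kept probes, -0.25 and -0.13, did not pass. The Gnaq call was lost without the intensity trend, and when any 1 array other than scrambled siRNA replicate 2 was left out.

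Among the partners and effectors of Gs alpha, 22 of 32 genes were measured, and 0 rose and 0 fell in the limma fit. Of these 22 genes 5 (22.7%) had an unadjusted p under 0.05, against 11.3% of all measured genes, and without Gas siRNA replicate 1 the beta subunit gene Gnb3 passed. The list covers the Ric8 chaperones, beta subunits, adenylyl cyclases and effectors of cAMP, and its median log2 change was -0.057. The smallest adjusted p-values belonged to Prkar2b, a regulatory subunit of protein kinase A, and Pkia, an inhibitor of that kinase. Prkar2b had log2 values of 11.71, 11.73 and 11.88 with Gas siRNA, against 11.50, 11.57 and 11.50 with scrambled siRNA, a change of 0.25 (95% interval 0.091 to 0.41, limma adjusted p = 0.141). Pkia had log2 values of 10.31, 10.37 and 10.14 with Gas siRNA, against 10.62, 10.43 and 10.57 with scrambled siRNA, a change of -0.27 (95% interval -0.45 to -0.081, limma adjusted p = 0.206). The groups of both genes did not overlap, but both genes were picked for their small p. Among the 21895 kept probes, 1626 had groups that did not overlap in the lower direction, that of Pkia. The number in the higher direction, that of Prkar2b, is not given here. Of the adenylyl cyclases, Adcy6, Adcy7 and Adcy9 were measured, with changes of 0.030, 0.11 and -0.10, and the probes of Adcy1, Adcy2, Adcy3, Adcy4, Adcy5 and Adcy8 were not kept. Adcy9 lay near the level of the dim Gnas probes (log2 means of 5.49 with Gas siRNA and 5.59 with scrambled siRNA).

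Genes whose pattern over the 6 arrays was most like that of Gnas were found by Pearson correlation with ILMN_2632206, among 456 genes with an absolute log2 change of at least 0.5. Clone names and predicted genes were left out. The points share the 3 against 3 split of the groups, so r mainly shows how tightly each group's arrays lie together. It was over 0.9 for 93 genes and under -0.9 for 68. These genes were chosen on the same values, which are given as a description. The highest r belonged to Man2a1, a mannosidase of N-glycan processing in the Golgi (r = 0.997, log2 values 10.39 to 10.41 with Gas siRNA and 11.50 to 11.65 with scrambled siRNA). Cant1, a calcium-activated nucleotidase, had r = 0.996, with log2 values of 10.08 to 10.20 with Gas siRNA and 10.82 to 10.84 with scrambled siRNA. Cyp11a1, the side-chain cleavage enzyme that begins steroid synthesis, had r = 0.992, with 8.71 to 8.82 with Gas siRNA and 9.55 to 9.69 with scrambled siRNA.

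Slc5a5, the sodium iodide symporter, and Inha followed with r = 0.991 each, and log2 differences of -0.52 and -1.78. The opposite pattern was closest for Cxcl14, a chemokine (r = -0.987), Wscd1 (r = -0.987), Wdr75, a factor of ribosome biogenesis (r = -0.984), Cryz, a quinone reductase (r = -0.982), and Slc6a9, a glycine transporter (r = -0.981). Their log2 differences were 0.51, 0.68, 0.55, 0.85 and 0.64. Cryz, with the largest, had log2 values of only 5.26 to 5.36 with scrambled siRNA, near the level of the dim Gnas probes. The size of its change was thus hardly measurable. Of the 5 highest and 5 lowest, Slc5a5 and Cxcl14 did not pass (limma adjusted p = 0.150 and 0.0588). Of the Gnas probes, ILMN_1223437 correlated with ILMN_2632206 at r = 0.992 over the 6 arrays. With group means removed, r between these 2 probes was -0.50 over the 6 arrays.

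**Figure D4:**
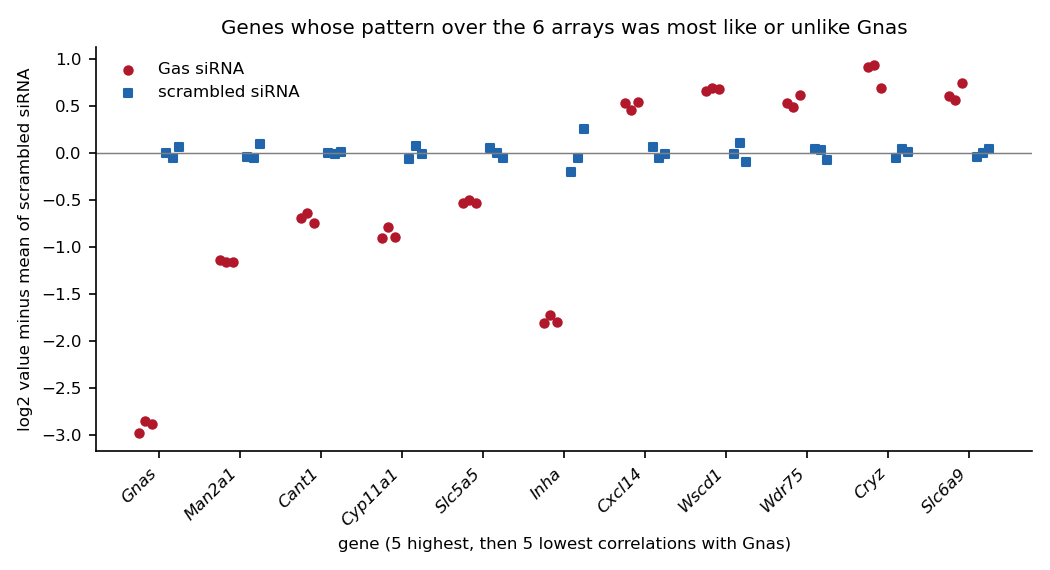
Log2 value minus the mean of the scrambled siRNA arrays, on each array, for Gnas (ILMN_2632206) and the 5 genes with the highest and the 5 with the lowest correlation with it. Red circles are Gas siRNA arrays and blue squares scrambled siRNA arrays. Of the 10 genes, 5 lie lower with Gas siRNA, with log2 differences of -1.78 to -0.52, and 5 higher, with 0.51 to 0.85. The largest rise, that of Cryz, starts from a level near background.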

How the data were processed

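Biotin-labelled cRNA of total RNA from 6 samples was put, per the labels' protocols, on Illumina MouseWG-6 v2.0 arrays. The values are intensity values processed by the authors with BeadStudio, per the submitters' processing notes, with its version and settings not given in the sources used here. When sorted, the columns agreed within 1.67% below the 10 brightest probes, as they would if quantile-normalized. Background was still present, as no value was under 97.6. A table of 24 columns before normalization, named by chip position, matches no sample's labels and was not used.

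The background of each array was taken from the deposited values: the mode of the log2 density, and the spread of the values below it. Normexp with these parameters (offset 16), quantile normalization and log2 followed. The test was that of limma 3.58.1 under R 4.3.3 (lmFit, eBayes with intensity trend, 2-sided, Benjamini-Hochberg adjusted over 21895 kept probes, threshold 0.05). The procedure was also run on simulated data whose spread followed an intensity trend by construction, so that run does not test the trend. Of several kept probes of a gene, the one of highest mean stood for it. Gene symbols came from the platform annotation, which gives 34885 probes 1 symbol and 18 several, and does not list 10378. Neighbours and promoters came from RefSeq (GRCm38.p6), and no coordinates are given for probes.

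Named were every Gnas probe, the neighbours, list members that passed (or the 2 with the smallest p), and the 5 highest and 5 lowest correlations with the brightest Gnas probe; Gnal and single markers or cyclases were named outside this rule. The members and lists were chosen with earlier results of these data known. Alternatives were other background corrections, offsets, scalings, filters and variance models, array weights, a replicate block and leaving out each array.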

Additional observations from a re-analysis of the deposited data

How the results depend on the processing

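Both bright Gnas probes kept their direction and their call under each of 15 other settings (limma adjusted p from 1.57e-23 to 6.55e-04). Without one array their log2 changes ranged from -2.93 to -2.87 for ILMN_2632206 and from -3.11 to -2.86 for ILMN_1223437. The difference between them reversed, to -0.23 without background correction and -0.032 with an offset of 50. ILMN_3075080 had an adjusted p of 0.0290 without background correction (log2 difference -0.29) and 0.0314 with normexp fitted by limma (-0.82), but as it was kept only through the scrambled siRNA arrays these values support no change. Without a scrambled siRNA array it was no longer above the bound on 3 arrays and gave no value, and without a Gas siRNA array it ranged from -1.07 to -0.81. ILMN_2580737 reversed to 0.070 without Gas siRNA replicate 2 and ranged from -0.35 to 0.070. Without one array ILMN_2483957 ranged from -0.82 to -0.40, ILMN_1252926 from -0.55 to -0.31 and ILMN_2761847 from 0.059 to 0.33, and without background correction they were -0.18, -0.11 and 0.058. With the filter asking for all 6 arrays 3 Gnas probes were left.

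Over the whole array 256 probes changed, 145 of them lower. Without the intensity trend it was 8, 7 of them lower, and Gnaq, the 1 changed alpha subunit gene, did not pass, leaving 0. Without one array the counts ranged from 144 to 210 and from 78 to 107 lower, with 144 when scrambled siRNA replicate 3 was left out, 154 for Gas siRNA replicate 3, and 167 for each replicate 2. The alpha subunit count ranged from 0 to 1, and that of partners and effectors from 0 to 1. The cause of these moves was not tested.

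The titles number the samples of both groups 1 to 3. Correlations of deviations were 0.016, 0.059 and 0.094 between same-numbered arrays, and -0.079 to 0.022 between differently numbered ones. The values were small and the numbers were not taken as pairs, but 0.059 and 0.094 were the highest. Whether same-numbered arrays share a batch was not tested. With the replicate block 424 probes changed, 230 of them lower, and the same 2 Gnas probes fell. Signal near background limits what the dim probes can show.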
